A study of Mus musculus with 15 samples.

Results

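The interaction of p27 and stathmin loss is the part of the double knock-out's expression that the 2 single knock-outs do not add up to. For each gene it was taken as double knock-out minus p27 knock-out minus stathmin knock-out plus wild type, on genotype means of the log2 ratio. A value of 0 means that the double knock-out lies where the 2 single differences sum, a value above 0 that it lies higher, and a value below 0 that it lies lower. All 15 arrays of the series entered it. The cells were mouse embryonic fibroblasts at passage 3, grown from C57B6 embryos of 13.5 days p.c. and collected at high confluence after 24 h without serum, in all 4 groups. The groups were wild type (4 arrays), p27 knock-out, labelled p27_KO1 (4 arrays), stathmin knock-out, labelled stathmin_KO2 (4 arrays), and double knock-out, labelled p27_stathmin_DKO (3 arrays). The labels call the arrays biological replicates but do not say how each allele was made or whether embryos were pooled or were littermates. Each array hybridised 1 RNA in red against a reference RNA of pooled fibroblasts in green, so each value is a log2 ratio to that reference. The p-values measure only the spread between these samples.

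p27, made from Cdkn1b, binds and inhibits cyclin-dependent kinases and restrains entry into S phase. It also binds stathmin, the product of Stmn1, a small protein that sequesters tubulin dimers and favours the disassembly of microtubules. If a consequence of p27 loss runs through stathmin, removing stathmin as well is the genetic test of it. That test reads double knock-out minus p27 knock-out. The interaction also subtracts stathmin knock-out minus wild type, so it can be large where both single losses shift a gene alike. The series title names a function of p27 in cell proliferation that is independent of the kinases.

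The second Stmn1 probe separated the genotypes: it lay between 0.64 and 0.87 on wild type arrays, between 0.41 and 1.49 on p27 knock-out arrays, between -2.98 and -2.64 on stathmin knock-out arrays and between -2.82 and -2.68 on double knock-out arrays. The brighter Stmn1 probe did not separate them, with means of -0.10, 0.18, -0.51 and -0.24. Cdkn1b was read by 1 tested probe. It gave 0.93, -0.22, 0.08 and 0.08 on the 4 wild type arrays, -0.15, -0.18, 0.05 and -1.10 on the p27 knock-out arrays, 0.34, 0.17, -0.46 and -0.39 on the stathmin knock-out arrays, and 0.19, -1.36 and -1.09 on the double knock-out arrays. These ranges overlap. The other 2 Cdkn1b probes were too dim to be tested. Whether the Cdkn1b probe lies in the deleted part is not given in the sources used here, so it does not check the p27 labels, and p27 knock-out and double knock-out below mean the arrays so labelled. The interaction was -0.11 ± 0.54 (SE) for Cdkn1b and -0.01 ± 0.43 (SE) for the brighter Stmn1 probe, which did not separate the genotypes. Their 95% intervals, -1.27 to 1.05 and -0.94 to 0.91, are too wide to place either gene near 0. The interaction of the second Stmn1 probe is not given here.

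The share of spots well above background ran from 59.3% to 78.9% over the arrays, and 18681 genes could be tested. All 15 fibroblast markers fixed for the check of the cell type were above background on every array, and so were 21 of 27 macrophage and blood markers. Esrp1, Myf5, Matn1 and Lep, markers of epithelium, skeletal muscle, cartilage and fat, were above background on no array. Many other markers of these types were detected. On every array, 12 of 19 epithelial, 16 of 29 skeletal muscle, 10 of 17 cartilage and 13 of 19 adipocyte markers were above background. So were 14 of 22 neuronal and glial and 5 of 12 endothelial markers. Xist lay above 0 on wild type 1, p27 knock-out 2, stathmin knock-out 1 and 2 and double knock-out 1, and at -1.76 or lower on the other 10 arrays. Ddx3y, a Y-linked gene, lay between -7.48 and -7.22 on the knock-out arrays of these 5 but at -0.27 on wild type 1, which thus carried both signals. Wild type 3 and 4 correlated at 0.84. The next closest pair, at 0.65, was stathmin knock-out 1 and p27 knock-out 4, of different genotypes. Over genes, the difference of wild type 3 and 4 had an SD of 0.27, against 0.38 to 1.1 in other pairs. Pairs within wild type correlated at 0.19 to 0.84 and within the p27 knock-out at -0.22 to 0.13. Within the stathmin knock-out they correlated at -0.08 to 0.37 and within the double at 0.07 to 0.58. The median of all pairs was 0.17, so the arrays did not group clearly by genotype. The 4 slides were scanned separately, 3 of them held all 4 genotypes, and each genotype kept 1 position on every slide. The contrast therefore sets 2 positions against the other 2, and position and genotype cannot be told apart.

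No gene passed an adjusted p under 0.05 for the interaction (limma, all 15 arrays), so called genes made up 0% of the 18681. The test is limited by the number of arrays. At an unadjusted p under 0.05 there were 1371 genes (7.34%), 707 above 0 (3.78%) and 664 below 0 (3.55%). At an unadjusted p under 0.01 there were 246 (1.32%), 135 above and 111 below. Of all genes, 47.2% lay above 0, with a median of -0.02. The median distance from a gene's value to its 95% limit was 0.70 on the log2 scale. For a typical gene with 3 or 4 arrays a genotype, smaller interactions do not reach an unadjusted p of 0.05. A call after adjustment needs more than that. Even the gene of smallest p, Gabra4 at 2.30 ± 0.34 (SE), was not called. The differences from which the interaction is built gave 1 call in stathmin knock-out minus wild type (0.00535%) and none in the others (0%). Genes below are therefore described by their values, and none of them is a call.

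The 246 genes were sorted by where the double knock-out lay. In 31 of them the p27 knock-out differed from wild type by at least 1 on the log2 scale and the double knock-out by at most 0.5 times that, which is here called restored. In 2, with a p27 difference of the same least size, the double knock-out lay on the opposite side of wild type by more than 0.5 times the p27 difference (reversed). In 7 a stathmin difference of at least 1 was restored in the same sense, with a p27 difference under 1. In 1 gene, Clec12b, the double knock-out differed by at least 1 and both single ones by under 0.5. No gene had a p27 difference of at least 0.5 that the double knock-out exceeded by more than 1 in the same direction (added). The interaction subtracts the p27 difference, so genes picked on its p lean towards a p27 difference of the opposite sign. Of the 246, 135 had an interaction above 0 and 135 had a p27 mean below wild type. That choice favours restored over added, so the class sizes carry no test. Of the rest, 195 with a value on every array fell in no class, and 10 lacked a value on at least 1 array. The p27, stathmin and double differences share the wild type arrays. Among genes just inside the limit for restored, Tdrkh had a p27 difference of -1.0 and Afap1l2 of 1.01. Just outside it, Lce1e had -0.97 and Sord 0.97.

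**Figure D1:**
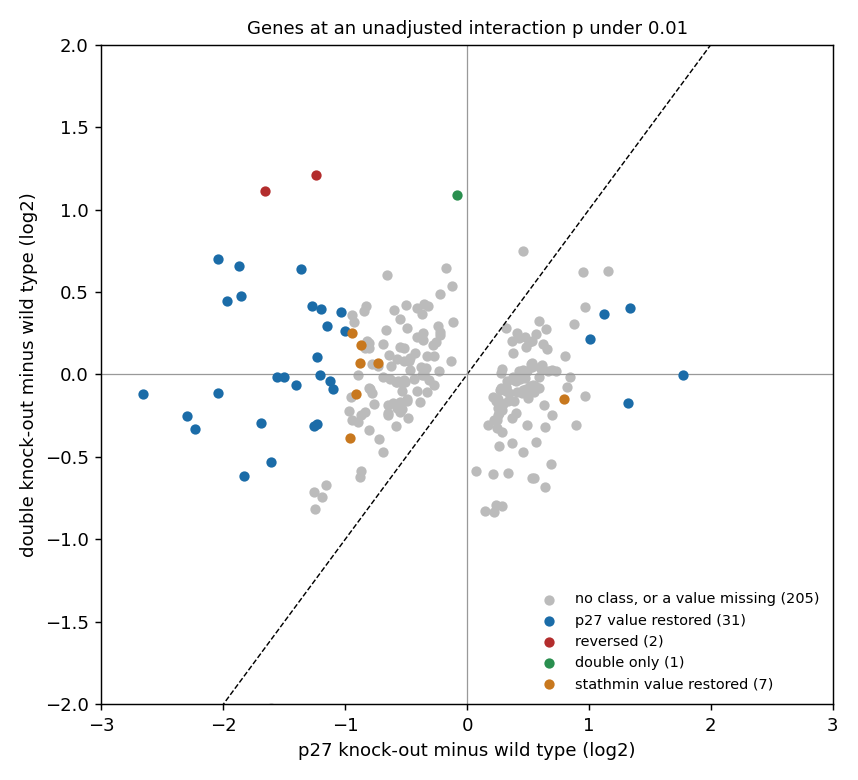
Double knock-out minus wild type (vertical axis, log2) against p27 knock-out minus wild type (horizontal axis, log2) for the 246 genes at an unadjusted interaction p under 0.01, 1 point a gene, coloured by class; the dashed line marks equal values, and the axes share the wild type arrays. The 31 restored genes lie at least 1 from 0 along the horizontal axis and within 0.70 of 0 along the vertical axis.

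Of the 31 restored genes, 26 were low in the p27 knock-out and 5 were high. In all 31, the stathmin knock-out differed from wild type in the same direction as the p27 knock-out. The same held in all 246 sorted genes, which were chosen on a contrast that subtracts both differences. Whether p27 loss acts through stathmin in them was not tested. The interaction of the 26 ran from 1.71 to 4.02 with a median of 2.62, and that of the 5 from -3.31 to -1.53. On the 3 slides that held all genotypes, 27 of the 31 had the same sign each time, which 26.5% of all genes had. The p27 arrays did not overlap the wild type arrays in 16 of the 31, beside 2.22% of genes with all values. They did not overlap the double knock-out arrays in 16 (3.16% of genes), and in 5 of the 31 all 8 single knock-out arrays lay beyond all 7 wild type and double knock-out arrays (0.0667%). These shares describe genes chosen on the same contrast and carry no test. The lowest p27 value fell on p27 knock-out 2 in 24 of the 26 low genes. That array carried Xist above 0 and lay on the slide without a double knock-out. Without it 16 genes met the rule for restored, 15 of them among the 31. All 31 kept the sign of their interaction, which their choice on a small p nearly fixes. The lowest stathmin value fell on stathmin knock-out 2, of the same slide, in 14 of the 26. Without stathmin knock-out 2, 24 genes met the rule for restored, 18 of them among the 31. The share of all genes with their lowest value on these arrays is not given here.

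Those 5 genes were Gabra4, Lce1h, Lce1i, Mycn and Lrrtm2. The same separation of arrays held in 12 genes of all, with Lce1e, Elavl4, Gnai1, Pnpla7, 4930579C12Rik, Omg and Akr1c6 as the other 7. Of the 12, 3 belong to 1 cluster, the late cornified envelope genes, whose small proteins are laid down beneath the membrane of keratinocytes in the outer skin. The 100 bases before the start of each are shown because these 3 genes share most of them, and beside them 2 relatives whose interaction lay near 0. The windows lie on the minus strand of chromosome 3 (GRCm38.p6, RefSeq), at chr3:92709075-92709174 for Lce1e, chr3:92765066-92765165 for Lce1h, chr3:92778900-92778999 for Lce1i, chr3:92656927-92657026 for Lce1b and chr3:92851287-92851386 for Lce1l. The letters AATAAAAGG, in capitals, lie 30 to 22 bases before the start of Lce1e, Lce1h and Lce1i. Lce1b, with aataaaaagg, and Lce1l, with cataaaagg, carry near matches that the capitals do not mark. The windows of Lce1f, Lce1g, Lce1m, Lce3c and Lce1a1, whose values are given below, are not shown. The letters therefore cannot be set against the interaction over the family.
Lce1e: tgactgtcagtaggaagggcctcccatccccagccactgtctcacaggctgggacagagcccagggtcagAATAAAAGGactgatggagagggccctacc
Lce1h: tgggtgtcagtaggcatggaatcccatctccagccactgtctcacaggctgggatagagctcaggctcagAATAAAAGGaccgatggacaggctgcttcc
Lce1i: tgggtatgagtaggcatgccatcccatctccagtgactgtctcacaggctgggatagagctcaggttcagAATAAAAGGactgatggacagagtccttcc
Lce1b: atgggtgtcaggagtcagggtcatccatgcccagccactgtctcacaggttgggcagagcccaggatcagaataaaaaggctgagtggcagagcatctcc
Lce1l: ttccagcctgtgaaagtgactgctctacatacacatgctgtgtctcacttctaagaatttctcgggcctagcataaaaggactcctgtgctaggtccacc

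Base by base and without gaps, Lce1h and Lce1i were identical at 89 of 100 positions, Lce1e and Lce1h at 84, and Lce1e and Lce1i at 82. Lce1b matched these 3 at 44 or 45 positions and Lce1l at 25 to 32, in a comparison that allows no inserted or missing base. The 9 letters, searched on both strands and picked after the windows were read, occur in 0.17% of 32851 promoter windows of that length. A match describes the letters only.

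Lce1i read 0.42, -0.06, 1.37 and 0.84 on the wild type arrays, -0.89, -2.44, -1.82 and -1.46 in the p27 knock-out, -1.65, -0.67, -0.37 and -1.34 in the stathmin knock-out, and -0.03, -0.05 and 1.24 in the double knock-out. All 8 single knock-out arrays were low and the double knock-out arrays lay within the wild type range. Its interaction was 3.70 ± 0.62 (SE, adjusted p = 0.314 by limma). Lce1h gave 0.23, -0.10, 1.37 and 0.75, then -0.81, -2.41, -1.93 and -1.51, then -1.43, -0.84, -0.57 and -1.53, and -0.14, -0.29 and 1.12 in the same order of groups, with an interaction of 3.55 ± 0.61 (SE, adjusted p = 0.314). Lce1e had smaller differences, from -0.73 to -0.37 in the p27 knock-out, from -0.74 to -0.15 in the stathmin knock-out and from -0.09 to 0.66 in the double knock-out, against 0.01 to 0.74 in wild type. Its interaction was 1.62 ± 0.30 (SE, adjusted p = 0.436), and it was well above background on only 3 p27 arrays. Within the complete slides the interaction of Lce1i was 2.93, 3.52 and 4.88, and that of Lce1h 2.34, 3.57 and 4.92. On the 10 arrays with low Xist both stood at 3.56, and with wild type 3 and 4 averaged they stood at 3.54 for Lce1i and 3.39 for Lce1h.

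The family, a group formed after the values were seen, had 10 genes measured, 6 above 0 and 4 at an unadjusted p under 0.05. Over all genes, 47.2% lay above 0 and 7.34% were at an unadjusted p under 0.05 (limma). Lce1e, Lce1h and Lce1i, for which the family was formed, are among those 4, so the count carries no test. Lce1f had 3.32 ± 1.34 (SE), Lce1g 1.19 ± 0.88 (SE) and Lce1m 0.15 ± 0.15 (SE). Lce1b at -0.07 ± 0.15 (SE), Lce1l at -0.17 ± 0.15 (SE), Lce3c at -0.03 ± 0.21 (SE) and Lce1a1 at -0.00 ± 0.15 (SE) had genotype means between -0.10 and 0.26. The members belong to 1 gene family, and whether a probe reads 1 of them alone was not tested. The small proline-rich genes, also of the cornified envelope, were also grouped after the values were seen. They lay above 0 in 7 of 8, beside the 47.2% of all genes. Their values ran from -0.02 to 2.15, with Sprr2e at 1.20 ± 0.40 (SE). Lor, which encodes loricrin, the main protein of that envelope, was among the 31 restored genes. It read -0.46, 0.34, 1.15 and 1.24 in wild type, -0.23, -2.86, -0.69 and -0.69 in the p27 knock-out, -1.08, -1.69, -0.16 and -1.39 in the stathmin knock-out and -0.39, 0.55 and 0.67 in the double knock-out. Its p27 and double knock-out ranges overlap.

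Gabra4, a subunit of the GABA-A receptor, the chloride channel of inhibitory synapses, had the smallest p of all genes. Its log2 ratios were 0.25, 0.36, 0.58 and 0.38 in wild type, -0.53, -1.30, -0.62 and -0.59 in the p27 knock-out, -0.13, -1.04, 0.03 and -0.73 in the stathmin knock-out, and 0.87, 0.48 and 0.72 in the double knock-out. The double knock-out arrays lay at or above the upper part of the wild type range, and the single knock-outs below all of it. The interaction was 2.30 ± 0.34 (SE, adjusted p = 0.243 by limma). Within slides it was 1.78, 1.64 and 2.41. It was not above background on 1 p27 and 1 stathmin array. When the ratios were also scaled between arrays, Gabra4 alone passed the threshold (limma, adjusted p = 0.0381), and its adjusted p lay between 0.0381 and 0.982 across the alternatives.

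Gabrb1, another subunit, starts 387 bases from Gabra4 in the RefSeq annotation and was also restored, at 2.16 ± 0.72 (SE). Its ratios were -0.38, 0.35, 0.30 and 0.41 in wild type, -0.65, -2.75, -0.58 and -0.12 in the p27 knock-out, 0.05, -1.04, 0.38 and -0.99 in the stathmin knock-out, and 0.56, 0.43 and 0.72 in the double knock-out. All 3 double knock-out arrays lay above the wild type range, and 2 of the 4 stathmin arrays within it. The other 9 GABA receptor subunits measured had no interaction at an unadjusted p under 0.05, and the lowest value was -1.55 for Gabrb2.

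Mycn, a transcription factor of the Myc family that drives growth and proliferation of embryonic progenitors, had the largest interaction of the restored genes, 4.02 ± 0.89 (SE, adjusted p = 0.655). It read -0.08, 0.05, 1.28 and 1.29 in wild type, -0.18, -3.24, -1.64 and -0.56 in the p27 knock-out, -1.0, -1.68, -0.66 and -2.5 in the stathmin knock-out and 0.34, 0.27 and 0.95 in the double knock-out. The 8 single knock-out arrays lay below the other 7, but p27 knock-out 1 came close to wild type 1, and 1 p27 array was not well above background. The 2 highest values came from wild type 3 and 4; with these averaged the interaction was 3.80. A second Mycn probe, too dim to be tested, gave 0.04. Mycl had 0.84 ± 0.40 (SE) and Myc, the member expressed most widely, 0.45 ± 0.46 (SE).

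**Figure D2:**
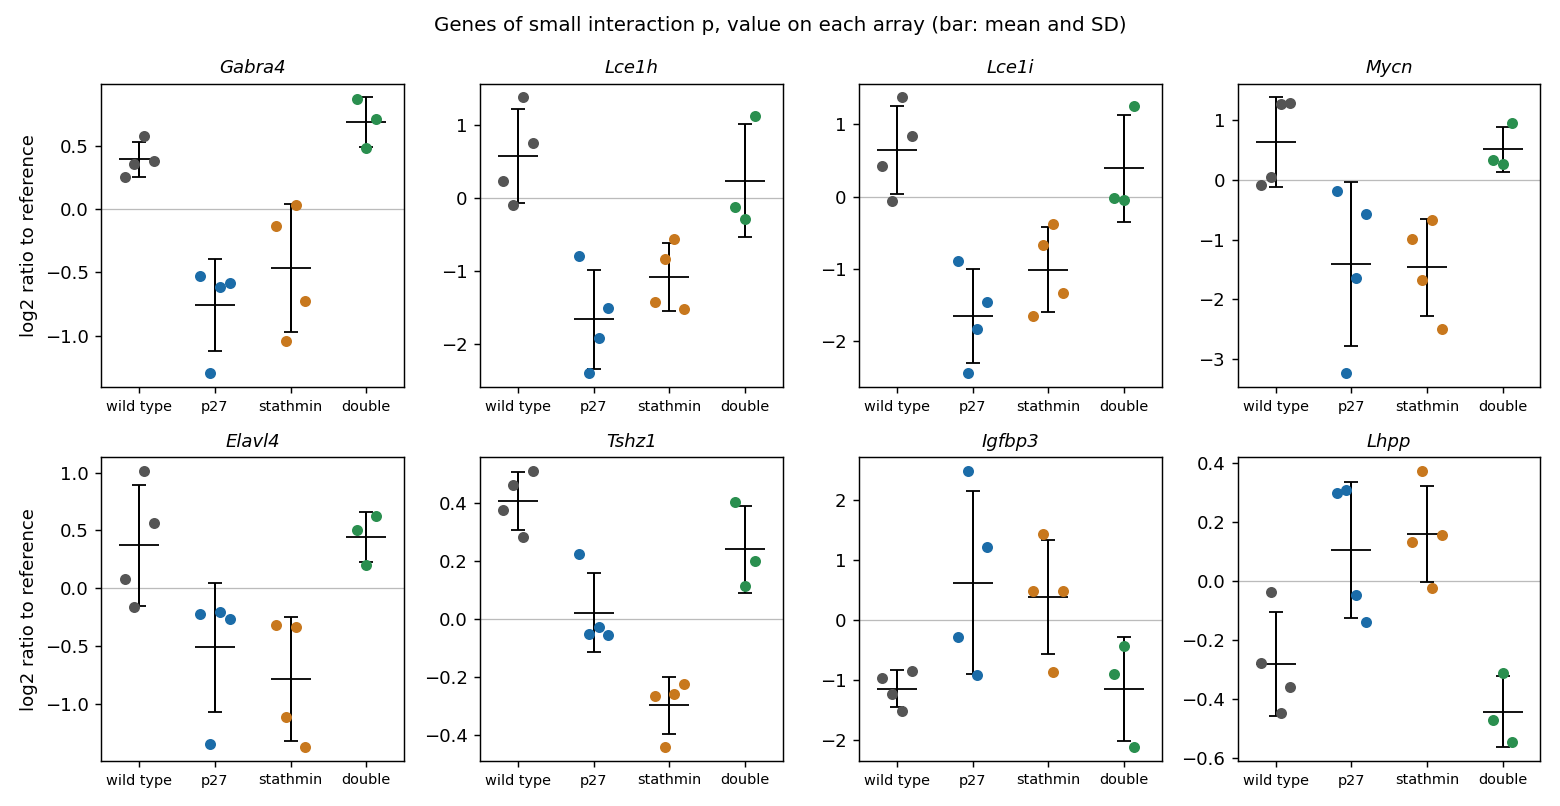
Log2 ratio to the reference (vertical axis) on each of the 15 arrays by genotype, for 8 genes with small interaction p; points are arrays, the horizontal bar is the genotype mean and the whisker its SD, and the scale differs between panels. Gabra4, Lce1h, Lce1i, Mycn and Elavl4 lie lower on all 8 single knock-out arrays than on the other 7, Tshz1 lies lower on most of them, and Igfbp3 and Lhpp lie higher on most of them.

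Several restored genes are known from neurons. Lingo2, an adhesion protein with leucine-rich repeats, had 3.59 ± 0.81 (SE): it lay between -0.32 and 0.61 in wild type, between -3.77 and -1.08 in the p27 knock-out, between -1.63 and 0.32 in the stathmin knock-out and between 0.39 and 1.44 in the double knock-out. Lrrtm2, which organises excitatory synapses, gave 0.25, 0.78, 0.50 and 0.93, then 0.05, -1.53, -0.56 and -0.42, then -0.92, -0.29, -0.03 and 0.09, and 0.25, 0.46 and 0.22 in the double knock-out. Its single and its other arrays separate, with wild type 1 and the double knock-out arrays only just above stathmin knock-out 4. Lrrtm2 was well above background on only 3 p27 and 3 stathmin arrays. Gap43, a growth cone protein, had 2.81 ± 0.89 (SE), but its double knock-out arrays were spread, at 1.88, -0.83 and -0.52. Nexmif, at 3.33 ± 0.81 (SE), lay between -2.71 and -0.39 in the p27 knock-out and between -0.07 and 1.42 in the double knock-out.

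Krt18, a keratin of simple epithelia, read 0.14, 0.51, 0.87 and 1.1 in wild type, 0.65, -3.03, -2.21 and -0.10 in the p27 knock-out, -0.03, -2.45, -1.56 and -1.57 in the stathmin knock-out and 0.36, -0.78 and 0.54 in the double knock-out. p27 knock-out 1 lay inside the wild type range, and the interaction (3.27 ± 1.06, SE) was -0.12 on slide 1, 3.86 on slide 3 and 3.31 on slide 4. Tes, a protein of focal adhesions, had 2.24 ± 0.71 (SE), and its p27 knock-out 3 array, at 0.36, lay above every wild type array. Dgkk, a diacylglycerol kinase, had 3.99 ± 1.15 (SE) with p27 values from -3.58 to -0.49. Pde8b, which degrades cyclic AMP, had 2.47 ± 0.71 (SE); its p27 values, from -2.74 to -0.39, lay below all wild type and all double knock-out arrays. The remaining low genes were Samd5, BC096458, St3gal6, Otud7a, Gpr149, Rian, Chst2, Klhl30, Kcnmb1, AK050947, Ifi27l2b and Tdrkh, with interactions from 1.71 to 3.30.

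The 5 genes that were high in the p27 knock-out and near wild type in the double were Igfbp3, C2, Susd2, Afap1l2 and Qpct. Igfbp3, the main carrier of insulin-like growth factors in serum, read -0.96, -1.24, -1.52 and -0.84 in wild type, -0.29, 2.49, -0.91 and 1.23 in the p27 knock-out, 0.48, 1.44, -0.86 and 0.49 in the stathmin knock-out, and -0.90, -0.42 and -2.12 in the double knock-out. One array of each single knock-out lay within the wild type range. The interaction was -3.31 ± 0.98 (SE) on this probe and -2.40 ± 0.81 (SE) on the other, and within slides it was -2.06, -0.17 and -4.68. C2, a complement component, had -1.77 ± 0.51 (SE), with -0.39, 0.96, 0.71 and 1.33 in the p27 knock-out against -1.10 to -0.44 in wild type and -0.75 to 0.12 in the double. Qpct, which forms pyroglutamate at the ends of peptides, had -1.53 ± 0.50 (SE), Susd2 -2.32 ± 0.75 (SE) and Afap1l2 -2.03 ± 0.64 (SE).

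Both genes of the reversed class had a p27 knock-out mean below and a double knock-out mean above that of wild type. Tfpi2, an inhibitor of serine proteases in the extracellular matrix, read -1.44, -0.67, 0.42 and 0.36 in wild type, -2.13, -2.79, -0.03 and -1.34 in the p27 knock-out, -0.83, -2.55, -0.60 and -1.26 in the stathmin knock-out and 1.75, -0.42 and 1.29 in the double. Double knock-out 2 lay inside the wild type range, so the position above wild type rested on the other 2 arrays. Its interaction was 3.42 ± 0.98 (SE, adjusted p = 0.655). The other is known only by the array's name TC1466661. It read -0.43 to 0.37 in wild type, -2.93 to -0.56 in the p27 knock-out, -0.28, -0.77, 0.73 and -0.85 in the stathmin knock-out and 1.5, 0.32 and 1.80 in the double, where the lowest array lay inside the wild type range, with an interaction of 3.15 ± 0.72 (SE).

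Clec12b, a lectin receptor of myeloid cells, stood alone in the class where only the double knock-out differed. Its probe was not well above background on any of the 12 other arrays and was above it on all 3 double knock-out arrays, whose ratios were 1.44, -0.06 and 0.41. Set against the dimmest measurable signal on each array, the double knock-out was at least 1.90-fold higher than wild type, at least 1.91-fold higher than the p27 knock-out and at least 2.06-fold higher than the stathmin knock-out; these bounds use 1 channel and are open to dye bias, since no dyes were swapped. The probe passed the filter on dim signals only through the double knock-out, and its class rests on below-background values in the other groups, so no interaction value is given.

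In 7 genes a stathmin difference of at least 1 was reduced to at most 0.5 times its size in the double knock-out. Elavl4, an RNA-binding protein of neurons, read 0.08, -0.16, 1.01 and 0.56 in wild type, -0.22, -1.34, -0.21 and -0.27 in the p27 knock-out, -0.31, -1.11, -0.33 and -1.37 in the stathmin knock-out and 0.50, 0.20 and 0.62 in the double. The groups separate, but p27 knock-out 3 at -0.21 and wild type 2 at -0.16 nearly touch. The interaction was 2.11 ± 0.48 (SE) on this probe and 1.32 ± 0.34 (SE) on the other. S100g, a calcium-binding protein, was low on 3 of 4 stathmin arrays, at -2.47, -2.04 and -2.04, and at 0.02 on the fourth. Prl3d2, a placental prolactin-family hormone, had 2.26 ± 0.61 (SE), a value with 1 of 4 p27 arrays not well above background. Vwc2, a secreted modulator of BMP signals, was well above background on only 2 stathmin and 3 p27 arrays, so its fitted 2.06 is not a measured size. Cyp4v3, a cytochrome P450, was the one with a negative interaction, -2.10 ± 0.70 (SE), and its p27 mean rested on 1 array at 2.02 against -0.50, -0.23 and -0.49. The remaining 2 are known by array names.

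Outside the classes, genes with small p had smaller but tighter differences. Tshz1, a zinc-finger repressor, read 0.37, 0.46, 0.28 and 0.51 in wild type, 0.23, -0.05, -0.03 and -0.06 in the p27 knock-out, -0.27, -0.44, -0.26 and -0.22 in the stathmin knock-out and 0.41, 0.12 and 0.20 in the double. The interaction was 0.92 ± 0.16 (SE, adjusted p = 0.314), and 0.54 ± 0.29 (SE) on a second probe. Lsm12 had 1.11 ± 0.25 (SE), with 0.95, 0.98 and 0.92 on the 3 complete slides. Its other tested probe gave 0.15. Cr2, a complement receptor, was well above background on 2 wild type, 1 p27, 1 stathmin and 3 double knock-out arrays and passed the filter only through the double knock-out, so no interaction value is given.

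Below 0, Lhpp, a histidine phosphatase, had the smallest p. It read -0.28, -0.04, -0.45 and -0.36 in wild type, 0.30, 0.31, -0.05 and -0.14 in the p27 knock-out, 0.13, 0.37, -0.02 and 0.16 in the stathmin knock-out and -0.47, -0.31 and -0.55 in the double. The double knock-out arrays lay below all 8 single knock-out arrays. The interaction was -0.99 ± 0.21 (SE, adjusted p = 0.655). Dzip1, a protein of the ciliary base, had -1.48 ± 0.33 (SE), and its double values of -0.92, -0.05 and -0.53 also lay below every single knock-out value. Rhoq, a small GTPase, had -0.71 ± 0.17 (SE), and Prnp, the prion protein, -1.31 ± 0.32 (SE), with double values of -0.34, -0.06 and -0.25 against 0.05 to 0.55 in the p27 and 0.20 to 1.08 in the stathmin knock-out. Ddb2, a member of the p53 list used here that recognises ultraviolet damage, had -1.21 ± 0.30 (SE). Entpd2, which hydrolyses extracellular ATP, had -1.95 ± 0.49 (SE), and Lama4, a laminin chain, -1.67 ± 0.42 (SE). Clmn, an actin-binding protein, differed in the double knock-out more than in the single ones: it read 0.42, 0.16, -0.00 and 0.05 in wild type, -0.03 to 0.68 in the p27 knock-out, 0.07 to 0.40 in the stathmin knock-out, and -0.73, -0.25 and -1.04 in the double. The interaction of Clmn was -1.08 ± 0.27 (SE).

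Gene lists are given by their counts and medians, beside 47.2% above 0, 7.34% at an unadjusted p under 0.05 and a median of -0.02 over all genes. None of their members was called. The cell cycle lists came first because p27 acts there. The 7 CDK inhibitors all lay below 0 and none reached an unadjusted p of 0.05; Cdkn2c had -0.89 ± 0.51 (SE) and Cdkn2a -0.75 ± 0.47 (SE). Their median was -0.17, and without single arrays it ran from -0.46 to 0.03. Of 12 G1 cyclins and kinases, 10 lay above 0, with a median of 0.50 and none at an unadjusted p under 0.05. That median was 0.28 without p27 knock-out 2, 0.29 without stathmin knock-out 2 and -0.053 on the 3 complete slides, whose list values were 0.12, -0.19 and 0.42. Ccne2, a cyclin that activates CDK2, had 1.21 ± 0.65 (SE), while Ccnd1 had 0.04 and Cdk4 0.05.

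Genes of DNA replication lay above 0 in 40 of 40, with a median of 0.58 and 3 at an unadjusted p under 0.05. The median was 0.37 without stathmin knock-out 2 and 0.19 on the 3 complete slides, which gave list interactions of 0.53, -0.14 and 0.30. The lowest list means were -0.95 on stathmin knock-out 2 and -0.61 on p27 knock-out 2, of the slide without a double knock-out. Prim2, a primase subunit, had 0.69 ± 0.30 (SE). Of 55 genes of G2 and mitosis, 54 lay above 0, with a median of 0.82 and 4 at an unadjusted p under 0.05. Cit, a kinase of cytokinesis, had 1.30 ± 0.46 (SE) on its brightest probe, but 0.06 and 0.05 on the other 2 tested probes. Mad2l1, of the spindle checkpoint, had 0.78 ± 0.34 (SE). The mean of this mitotic list was 0.56, 0.13, -0.02 and 0.01 on the wild type arrays, -0.38, -0.84, 0.70 and 0.46 in the p27 knock-out, -0.05, -1.36, -0.04 and -0.59 in the stathmin knock-out, and 0.15, -0.00 and 0.14 in the double. The lowest values were p27 knock-out 2 and stathmin knock-out 2, of the slide without a double knock-out; the median was 0.53 without the first and 0.52 without the second. On the 3 complete slides alone it was 0.21, on the low-Xist arrays 0.14, and the slides gave list interactions of 1.14, -0.68 and 0.28. The sign of the mitotic list thus differed between slides.

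**Figure D3:**
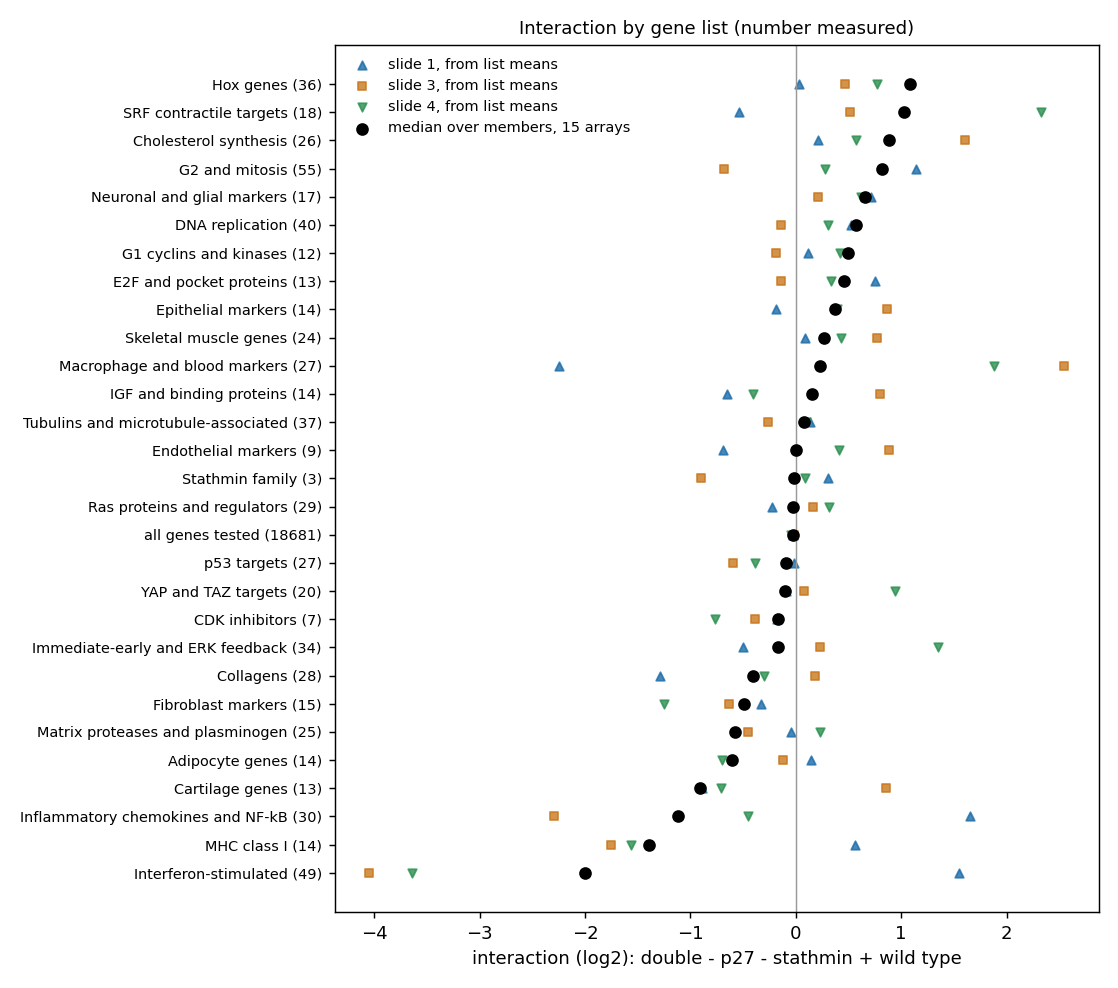
Interaction on the log2 scale (horizontal axis) for each gene list, with the number of members measured in brackets; the black point is the median over members on 15 arrays, and the triangles and squares are the interaction of the list mean within each of the 3 slides that hold all 4 genotypes. The interferon list lies at -2.0, yet slide 1 gives 1.55 and the other 2 slides -4.05 and -3.64.

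The pathway lists on either side of p27 and stathmin were near the background. Immediate-early and ERK feedback genes lay above 0 in 13 of 34 (median -0.17), with no stable direction: the median ran from -0.35 (without stathmin knock-out 1) to 0.21 (without stathmin knock-out 2), was 0.37 on the 3 complete slides, and the slides gave -0.50, 0.23 and 1.35. The medians of the Ras, tubulin, stathmin family, YAP and TAZ, IGF, p53, macrophage, endothelial and CDK inhibitor lists also lay on both sides of 0 when single arrays were left out. Spry4, a feedback inhibitor of receptor kinases, had 2.56 ± 0.95 (SE) on its brightest probe and 0.61 on a dimmer one, and Egr1, an immediate-early transcription factor, -2.59 ± 1.08 (SE). Ras proteins and regulators lay above 0 in 13 of 29 (median -0.02). Nras had 0.71 ± 0.24 (SE) on its brightest probe and 0.23 on another, and Rasa1, which switches Ras off, 1.23 ± 0.38 (SE). Tubulins and their associated proteins lay above 0 in 20 of 37, with a median of 0.08 and 4 at an unadjusted p under 0.05. Tuba1a had 1.65 ± 0.52 (SE); it read 1.08, 0.66, 0.94 and 0.49 in wild type, -0.22, -0.54, 1.05 and 0.79 in the p27 knock-out, 0.43, -0.86, 0.20 and -0.48 in the stathmin knock-out and 1.17, 0.78 and 0.91 in the double, so that p27 knock-out 3 and 4 stood inside the wild type range. Map1b, which stabilises microtubules, had 0.89 ± 0.33 (SE), with only 3 p27 arrays well above background. The relatives of stathmin went opposite ways: Stmn4 had 2.22 ± 0.77 (SE) and Stmn2 -2.05 ± 0.92 (SE). Stmn2 read -0.85, 0.31, -0.69 and -0.42 in wild type and -1.47, -0.76 and -1.93 in the double knock-out, and on 1 p27 array it reached 2.43.

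The interferon-stimulated genes had the lowest median of the lists, -2.0, with 49 of 49 below 0 and 8 at an unadjusted p under 0.05. Interferon binds its receptors, and the signal then activates promoters that carry the element GAAA, any 2 bases, GAAA. The 120 bases before the start of Ifit1 (chr19:34640769-34640888, plus strand) and Isg15 (chr4:156200819-156200938, minus strand; GRCm38.p6, RefSeq) are shown as examples from this list, with the element in capitals on either strand.
Ifit1: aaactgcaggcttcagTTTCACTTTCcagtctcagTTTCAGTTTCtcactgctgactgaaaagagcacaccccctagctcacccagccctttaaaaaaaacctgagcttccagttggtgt
Isg15: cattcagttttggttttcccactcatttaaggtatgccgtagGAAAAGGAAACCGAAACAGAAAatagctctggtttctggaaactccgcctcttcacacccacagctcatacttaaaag

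The element, searched on both strands, occurs in 1.22% of 32851 windows of that length; overlapping matches give Isg15 3 and Ifit1 has 2. Ifit1 had an interaction of -3.52 and Isg15 of -2.31, at unadjusted p of 0.077 and 0.093. The list mean was -1.38, -1.51, -1.59 and -1.62 on the wild type arrays, -1.57, 1.05, 1.55 and -0.84 in the p27 knock-out, -1.02, -1.49, -0.14 and 1.29 in the stathmin knock-out and 0.33, -1.05 and -1.56 in the double. All wild type arrays were low, and each of the other groups held both low and high arrays. Within slides the list gave 1.55, -4.05 and -3.64: the sign on slide 1 was opposite. Psmb9, an immunoproteasome subunit, had -2.31 ± 0.85 (SE) and Tap1, the peptide transporter whose gene starts 226 bases away, -1.80 ± 0.69 (SE). MHC class I genes lay below 0 in 13 of 14 (median -1.39, and -0.92 without p27 knock-out 2). Within slides this list gave 0.56, -1.75 and -1.56, again with the opposite sign on slide 1. Inflammatory chemokines and NF-kB targets lay below 0 in 28 of 30, with 1 at an unadjusted p under 0.05 and a median of -1.12. That median was -0.44 without p27 knock-out 2 and -0.74 without double knock-out 2 or 3. The inflammatory list gave 1.65, -2.30 and -0.45 within slides, so its sign on slide 1 was opposite too. Ccl5, a chemokine for T cells, spanned -3.50 to 2.70 within the p27 knock-out alone.

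Serum response factor targets of the contractile apparatus lay above 0 in 18 of 18, with a median of 1.02 and 5 at an unadjusted p under 0.05. Des, the muscle intermediate filament, had 2.81 ± 1.05 (SE), Tagln 2.75 and Acta2, smooth muscle actin, 1.55. The list mean was -0.05, 0.71, 0.33 and 0.44 in wild type, 0.85, -1.64, 0.21 and -0.56 in the p27 knock-out, -0.44, -0.02, 0.13 and -0.52 in the stathmin knock-out and -0.07, 0.54 and 0.81 in the double. The groups overlap, the p27 range spans all others, and slide 1 gave -0.54 against 0.52 and 2.33. Of the YAP and TAZ targets, which respond to the same actin tension, 8 of 20 lay above 0; Ankrd1 had 3.15 ± 1.07 (SE). Cholesterol synthesis genes lay above 0 in 25 of 26, with a median of 0.88 and 7 at an unadjusted p under 0.05. Idi1, which makes an isoprenoid precursor, had 1.43 ± 0.52 (SE). The cholesterol list mean was tight in wild type (-0.04 to 0.06) and in the double knock-out (0.08 to 0.28), and wide in the p27 knock-out (-0.67 to 0.63) and in the stathmin knock-out (-0.97 to 0.21). All 3 slides gave it a value above 0: 0.21, 1.61 and 0.57.

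**Figure D4:**
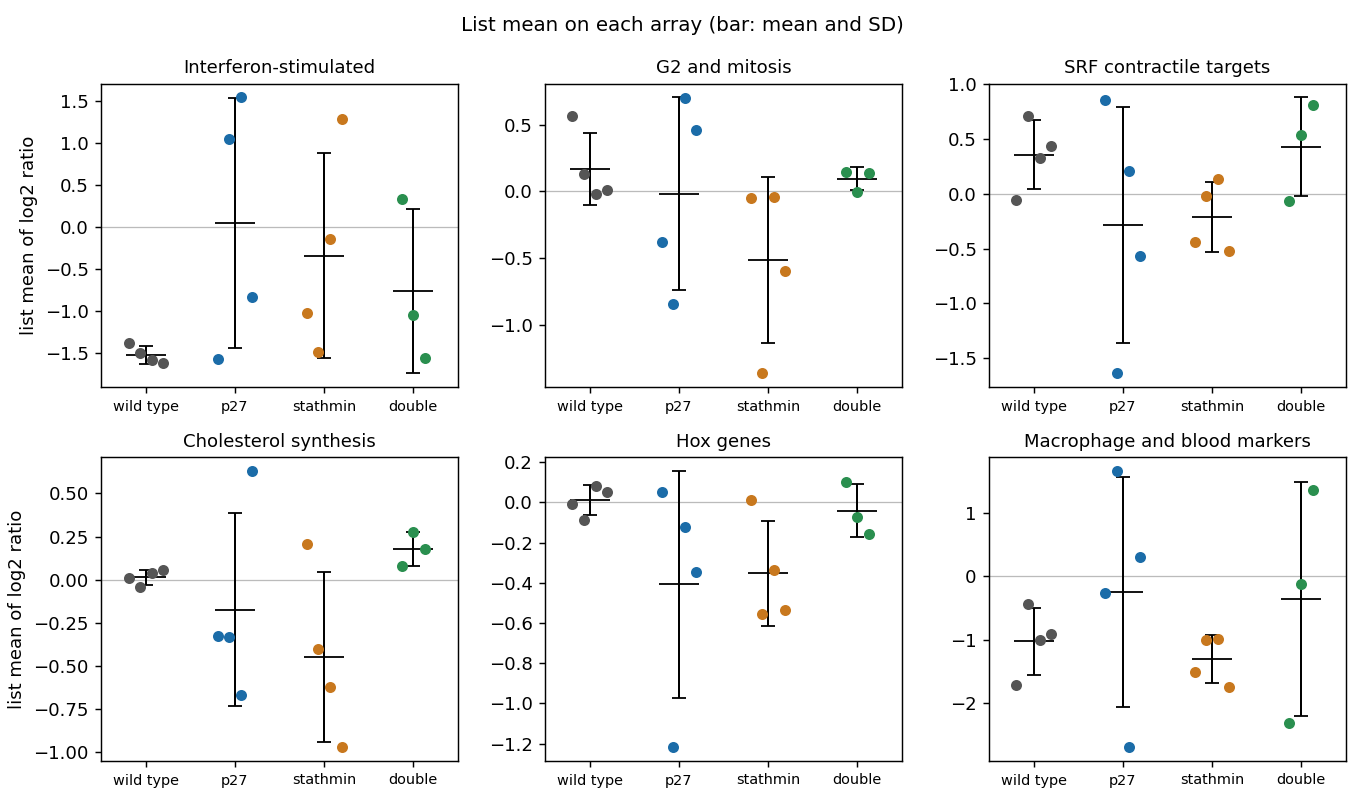
Mean log2 ratio of the members of 6 gene lists (vertical axis) on each of the 15 arrays by genotype; points are arrays, the horizontal bar is the genotype mean and the whisker its SD. In the interferon list wild type lies between -1.62 and -1.38 while the p27 knock-out runs from -1.57 to 1.55, and in the Hox list 1 p27 array lies at -1.22.

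Hox genes, which record the position of a cell along the body and limbs, lay above 0 in 26 of 36, with a median of 1.09 and 12 at an unadjusted p under 0.05, 8 above and 4 below. Counted by paralog group after the values were seen, 23 of the 26 measured genes of the anterior and middle groups, the first to the ninth, lay above 0 (median 1.35), and 7 of the 10 of the posterior groups, the tenth to the thirteenth, lay below 0 (median -0.87). This count is a description and carries no test. Hoxb8 had 2.63 ± 0.99 (SE) and Hoxc6 2.29 ± 0.96 (SE), while Hoxa13 had -1.86 ± 0.77 (SE) and Hoxd13 -1.71. Hoxc5 read -0.05, 0.56, 0.05 and 0.18 in wild type, -0.16, -1.79, -0.22 and -0.20 in the p27 knock-out, -0.25, -0.99, 0.23 and -0.44 in the stathmin knock-out and 0.06, 0.26 and 0.49 in the double. Hoxd10 read 0.02, -0.18, -0.25 and -0.03, then 0.04, 0.67, -0.23 and -0.54, then -0.24, 0.68, 0.34 and 0.88, and -0.66, -0.29 and -1.25. In both genes the ranges of the groups overlap. Without p27 knock-out 2 the list median was 0.64, and on the 10 low-Xist arrays 0.61. Hoxa5 passed the threshold when p27 knock-out 1 was left out (interaction 2.67, adjusted p = 0.0494), and Fn3krp, a fructosamine kinase, when stathmin knock-out 4 was left out (-1.92, adjusted p = 0.0245).

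Collagens lay below 0 in 19 of 28, with a median of -0.41 (-0.67 without double knock-out 2) and 6 at an unadjusted p under 0.05, all below 0. The probes that stood for the 3 chains of collagen VI were among them. Within slides the collagen list gave -1.29, 0.18 and -0.30, so its sign differed between slides. Col6a3 read 0.35, 0.39, 0.46 and 0.29 in wild type, 0.40, 1.02, 0.99 and 0.03 in the p27 knock-out, 0.23, 0.96, 0.35 and 0.52 in the stathmin knock-out and -0.61, -0.19 and -0.46 in the double, where all 3 arrays lay below the other 12. Its interaction was -1.17 ± 0.32 (SE). Col6a1 had -1.12 ± 0.36 (SE). Col6a2 had -1.05 ± 0.30 (SE) on its brightest probe and 0.02 on another tested probe, so its 2 probes disagreed. The Col3a1 probe was saturated on 11 arrays; it read -2.39, and another tested probe -0.77. Matrix proteases lay below 0 in 16 of 25 (median -0.58, and -0.37 without p27 knock-out 2). Within slides this protease list gave -0.04, -0.45 and 0.23, again with both signs. Mmp2, a gelatinase, had -1.52 ± 0.53 (SE) and Plat, the tissue plasminogen activator, 1.07 ± 0.31 (SE). Among IGF genes, 9 of 14 lay above 0, and Igf2bp1, which binds messenger RNAs of the pathway, had 0.89 ± 0.28 (SE). Targets of p53 lay above 0 in 11 of 27 (median -0.09). The list of E2F factors and the pocket proteins that bind them lay above 0 in 10 of 13, with slide values of 0.75, -0.14 and 0.34 and with E2f7 at 1.21 ± 0.50 (SE).

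Markers of cell types are given beside these values. Fibroblast markers lay below 0 in 13 of 15, with a median of -0.49, and their list mean ran from -0.17 to 0.40 in wild type, 0.24 to 1.25 in the p27 knock-out, 0.29 to 1.01 in the stathmin knock-out and -0.09 to 0.25 in the double. Pdgfrb, a receptor of mesenchymal cells, had -1.12 ± 0.30 (SE). Of 14 epithelial markers 8 lay above 0, and 5 of them, Krt19, Krt18, Krt7, Krt80 and Cldn3, were at an unadjusted p under 0.05; the list median of 0.37 was 0.13 without p27 knock-out 2. Neuronal and glial markers lay above 0 in 12 of 17 (median 0.66), skeletal muscle genes in 16 of 24 (median 0.27), cartilage genes in 4 of 13 (median -0.91) and adipocyte genes in 2 of 14 (median -0.61). The cartilage median was -0.50 without p27 knock-out 2 and -0.39 without stathmin knock-out 2, and the adipocyte median -0.40 and -0.33. Within slides the cartilage list gave -0.89, 0.86 and -0.71, the adipocyte list 0.15, -0.12 and -0.70, and the epithelial list -0.18, 0.86 and 0.39. The sign of each of these lists thus differed between slides. Macrophage and blood markers lay above 0 in 16 of 27, with none at an unadjusted p under 0.05; their list mean ran from -1.72 to -0.44 in wild type, from -2.69 to 1.65 in the p27 knock-out, from -1.74 to -0.98 in the stathmin knock-out and from -2.31 to 1.36 in the double. Endothelial markers lay above 0 in 5 of 9. The part of the make-up of the cultures in any gene's interaction was not tested, and in bulk RNA fewer cells of a type and less RNA per cell cannot be told apart.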

How the data were processed

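Per the file headers, the scanner software was Agilent Feature Extraction 9.1.3.1, set to subtract no background, and the deposited files give the intensity of every spot in red (sample) and green (reference). The deposited files also hold a log10 ratio of red over green for each spot, which the authors' scanner software computed from its dye-normalized signals, per the file headers. The authors' deposited value table holds processed log2 ratios of the same arrays, with scale, centring and direction not stated; it correlated with the ratios used here at 0.958 to 0.993, and its column medians lay between 0.0039 and 0.0522. Aligners do not apply, and the genome build is not given in the sources used here.

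The intensities were corrected with normexp (offset 50) and normalized within arrays by loess in limma 3.58.1 (R 4.3.3). Outlier spots were left out and spots of a probe averaged. A probe entered the test if 1 or more genotypes had 3 or more arrays with its red signal well above background, and the brightest such probe stood for a gene. Of the 27700 probes tested, 18206 were named through accessions, 4017 through current and 1906 through older symbols, and 3571 kept the array's name. A single limma fit with a mean for each genotype gave the interaction, with Benjamini-Hochberg adjustment over all 18681 genes. The fit was tested on simulated data.

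The genes named are Cdkn1b and Stmn1, the 8 of smallest p above and below 0, up to 6 of each class and 2 of each of 28 lists. Others, such as further class members, the 12 genes with separate arrays and family members, were chosen after their values were seen. Some genes that the rule names are not reported here. The members and lists were chosen with earlier results of these data known. Between arrays of the same replicate number, correlations of deviations ran from -0.32 to 0.43, and 12 of 21 pairs were over 0.1. The share among other pairs is not given here, so whether the numbers pair the arrays was not settled. Double knock-out 2 and 3 lay on slides 3 and 4, so the number does not always name the slide. Alternatives changed background correction, normalization, filter, probe choice, blocks, weights and arrays.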

Additional observations from a re-analysis of the deposited data

Results flagged for a closer look

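In 24 of the 324 groups of 4 values examined, 1 array lay far from the other 3 (a gap ratio above Dixon's 95% critical value), and chance alone gives about 1 in 20 such groups. Of these, 11 were on p27 knock-out 2. It was lowest for Gabra4 (-1.30, next -0.62), Lingo2 (-3.77, next -1.48), Elavl4 (-1.34, next -0.27), Prl3d2 (-1.82, next -0.58), E2f7 (-1.45, next 0.09) and Hoxc5 (-1.79, next -0.22). It was highest for Dzip1 (0.95, next 0.30), Cyp4v3 (2.02, next -0.23), Icam1 (1.93, next -0.32), Hapln1 (0.67, next -1.01) and the adipocyte list mean (1.08, next -0.17). The part of that array's slide, and of the sex-linked pattern that it shares with other arrays, in these values was not tested beyond the alternatives without it.

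Among the other arrays, Tshz1 was high on p27 knock-out 1 (0.23, next -0.03), and the CDK inhibitor list mean was low on p27 knock-out 3 (-0.20, next -0.13). In wild type, Mad2l1 was low on array 2 (-0.018, next 0.29), Map1b high on array 1 (1.05, next 0.33) and Des high on array 2 (1.00, next 0.00). The inflammatory list mean was low on wild type 1 (-1.57, next -0.93), as were the matrix protease list mean (-0.91, next -0.45) and the endothelial list mean (-0.27, next 0.07). The adipocyte list mean was high on wild type 2 (-0.20, next -0.55). In the stathmin knock-out, Vwc2 was high on array 1 (0.41, next -1.08), Cdk6 high on array 3 (0.58, next -0.22), the collagen list mean high on array 2 (0.66, next 0.18) and the inflammatory list mean low on array 1 (-2.18, next 0.33).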

How the results depend on the processing

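On the probe that stood for it, each gene named by the rule other than Cdkn1b and Stmn1 kept the sign of its interaction under every alternative that gave it a value. So did all 31 restored genes. Most of these genes were chosen for a small interaction p on largely the same arrays. A kept sign was thus nearly fixed in advance and carries no test. Membership was less stable. Of the 31 restored genes, 10 were restored again on the 10 low-Xist arrays and 9 on the 3 complete slides. Of the 246 genes at an unadjusted p under 0.01 (limma), 51 and 86 recurred there. The number of genes called was 0 in all settings but scaling between arrays (1, Gabra4) and the fits without p27 knock-out 1 (1, Hoxa5) or stathmin knock-out 4 (1, Fn3krp), so that without single arrays it ran from 0 to 1. The number at an unadjusted p under 0.01 was 372 with scaling, 802 with array weights, 151 with wild type 3 and 4 averaged and 154 on the 10 low-Xist arrays (chosen after seeing the data), and 93 to 376 without single arrays. The number restored was 58 with the scanner's ratio, 10 on the 3 complete slides, 155 with array weights and 20 with wild type 3 and 4 averaged, and 16 (without p27 knock-out 2 or double knock-out 3) to 109 (without p27 knock-out 1) without single arrays. With the replicate block these numbers were 698 and 50, and with a slide block 245 and 29. Of the 15 arrays, 5 were closest to one of their own replicate number, and whether these numbers pair the arrays was not settled.

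List medians moved as follows, and the cause was not tested. On the 3 complete slides: CDK inhibitors -0.49, G1 cyclins -0.053, DNA replication 0.19, mitosis 0.21, stathmin family -0.38, tubulins -0.15, p53 -0.42, Hox 0.50, cartilage -0.30. On the low-Xist arrays: CDK inhibitors -0.50, G1 cyclins 0.20, E2F 0.24, mitosis 0.14, stathmin family -0.42, tubulins -0.077, p53 -0.45, Hox 0.61, macrophage 2.06, cartilage -0.22. With array weights: CDK inhibitors -0.68, stathmin family -0.40, tubulins -0.041, p53 -0.39, macrophage 1.66. CDK inhibitors had -0.44 with scaling, cartilage -0.31 with probe means, fibroblast markers -0.12 on the sample channel alone, neuronal markers 0.82 with the scanner's ratio and 0.88 with the stricter filter, and endothelial markers 1.32 with that filter. Without single arrays, CDK inhibitors ran from -0.46 to 0.033, Ras genes from -0.067 to 0.11, tubulins from -0.069 to 0.13, Hox from 0.64 to 1.34 and neuronal markers from 0.58 to 0.85.

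Stmn1 changed sign to 0.0015 with a normexp offset of 10, 0.067 with median centring, 0.024 with the scanner's ratio, 0.094 in the deposited table, 0.055 on the sample channel alone, 0.0077 with the replicate block and 0.071 with wild type 3 and 4 averaged, and ran from -0.28 to 0.20 without single arrays. Cdkn1b changed sign to 0.040 on the sample channel alone, 0.18 on the 3 complete slides and 0.024 with an Xist term, and ran from -0.58 to 0.19 without single arrays. The median distance from a value to its 95% limit was 0.70 with 3 or 4 arrays a genotype. For a typical gene, smaller interactions do not reach an unadjusted p of 0.05, and a call after adjustment needs more than that.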
